A study of Sus scrofa with 74 samples.

Results

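Actin filaments, microtubules and the proteins that fasten them to the plasma membrane were examined in 74 F2 pigs of a cross of the breeds Duroc and Pietrain, in their M. longissimus dorsi, a large muscle along the spine. The muscle was sampled at slaughter at a mean end weight of about 110 kg and each pig had 1 Affymetrix Porcine Genome Array. Expression is given as log2 of the scaled intensity. All pigs make up 1 group, since the labels carry no treatment, genotype, sex, family or drip loss value. Of 38 listed genes, 30 were read by 53 probe sets that the annotation assigns to a single gene, out of 6765 genes and 10069 such probe sets on the array. A probe set is a group of short oligonucleotides that reads 1 transcript. PFN1, FLNC, TLN2, ACTN4, PLEC, SPTBN1, ANK1 and SVIL were not analysed here, because no probe set is assigned to any of them alone. After a filter that kept the brighter 12000 of the 23999 non-control probe sets, 27 of the 30 genes were left with 41 probe sets, and MYH10, TUBA1A and ANK3 were too dim. Each gene is represented by its brightest kept probe set. Levels were compared between animals and never between genes, because probe sets differ in how strongly they hybridise.

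The label numbers of the animals run from 1 to 33 in 24 pigs and from 60 to 114 in 50 pigs, and the labels do not say what they mean. These are called the low-number and the high-number animals. Before scaling, the level of the arrays ran from 48.8 to 120.6 in the low-number animals (median 84.0) and from 82.3 to 180.1 in the high-number animals (median 129.8), so the block of numbers and the level of the array cannot be fully told apart. On 4 arrays, 3 of low-number and 1 of high-number animals, the median correlation with the arrays of the same block was under 0.9, against a median of 0.940 over all arrays. Each p-value treats the pigs as independent, although by the study's methods many are siblings. Of 16 markers of muscle fibres, 12 had a probe set, and all 12 passed the filter. ACTA1, MYH1, MYH4 and MB were not analysed here. In a whole muscle sample, fewer cells of a type and less RNA per cell cannot be told apart.

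Moesin (MSN), ezrin (EZR) and radixin (RDX) form the ERM family, which ties actin filaments to membrane proteins of the cell cortex. Actin is built up and taken down by regulators such as the branching Arp2/3 complex, the severing cofilins and the capping proteins, and filamins crosslink the filaments. Microtubules are made of alpha and beta tubulin and carry motors such as kinesin. In skeletal muscle these systems lie beside the contractile apparatus, while many of the nonmuscle forms are also abundant in the blood vessels, connective tissue and immune cells of the muscle.

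MSN and EZR rose and fell together over the animals, and RDX ran against MSN. The MSN level ran from 10.68 to 11.88 with a median of 11.05 in the low-number animals, and from 10.63 to 11.74 with a median of 11.21 in the high-number animals. For EZR the lowest, median and highest levels were 8.27, 9.49 and 10.35 in the low-number and 8.33, 9.30 and 10.94 in the high-number animals. RDX had 8.02, 9.71 and 10.49 in the low-number and 8.0, 9.35 and 10.22 in the high-number animals. The blocks overlapped for each of these genes over most of their range.

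With the mean of each block removed, MSN and EZR had a Pearson r of 0.689 and a Spearman rho of 0.665 (permutation p = 1e-05 for each, the smallest that 100000 permutations can give). Within the low-number animals r was 0.708 and within the high-number animals 0.679, and without the 2 animals farthest from the median of MSN it was 0.656. The adjusted p from limma, fitted over all kept probe sets and all 27 genes together, was 2e-09. MSN and RDX gave r = -0.444 and rho = -0.319 (permutation p = 0.00011 and 0.0135), r = -0.450 without the 2 farthest animals, and a limma adjusted p of 0.00065. The relation was -0.691 in the low-number and -0.260 in the high-number animals, and in the latter alone it did not pass (limma adjusted p = 0.19). A difference between the slopes of the blocks was not detected (limma adjusted p = 0.60). In the values as deposited, which were not brought to a common array level, the sign of the MSN and RDX relation turned (r = 0.297). EZR and RDX had r = -0.213 and rho = -0.119 and did not pass the test (permutation p = 0.0735 and 0.37, limma adjusted p = 0.15). As deposited this pair had r = 0.235, which did not pass either (limma adjusted p = 0.081). With the level of the array as a covariate it had r = -0.379 (limma adjusted p = 0.0075).

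MSN has a dimmer kept probe set as well, which followed the brighter one with r = 0.628 (0.731 and 0.570 in the blocks). The dimmer RDX probe set followed its brighter one with r = 0.784 and also ran against MSN, with r = -0.544 (limma adjusted p = 1.2e-05). RDX moved with the level of the array before scaling, with r = 0.672 within blocks, whereas the values for MSN and EZR were -0.0560 and 0.0999. The part of the array level in the RDX relations was not tested beyond its use as a covariate, under which the r of MSN and RDX was -0.550.

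**Figure D1:**
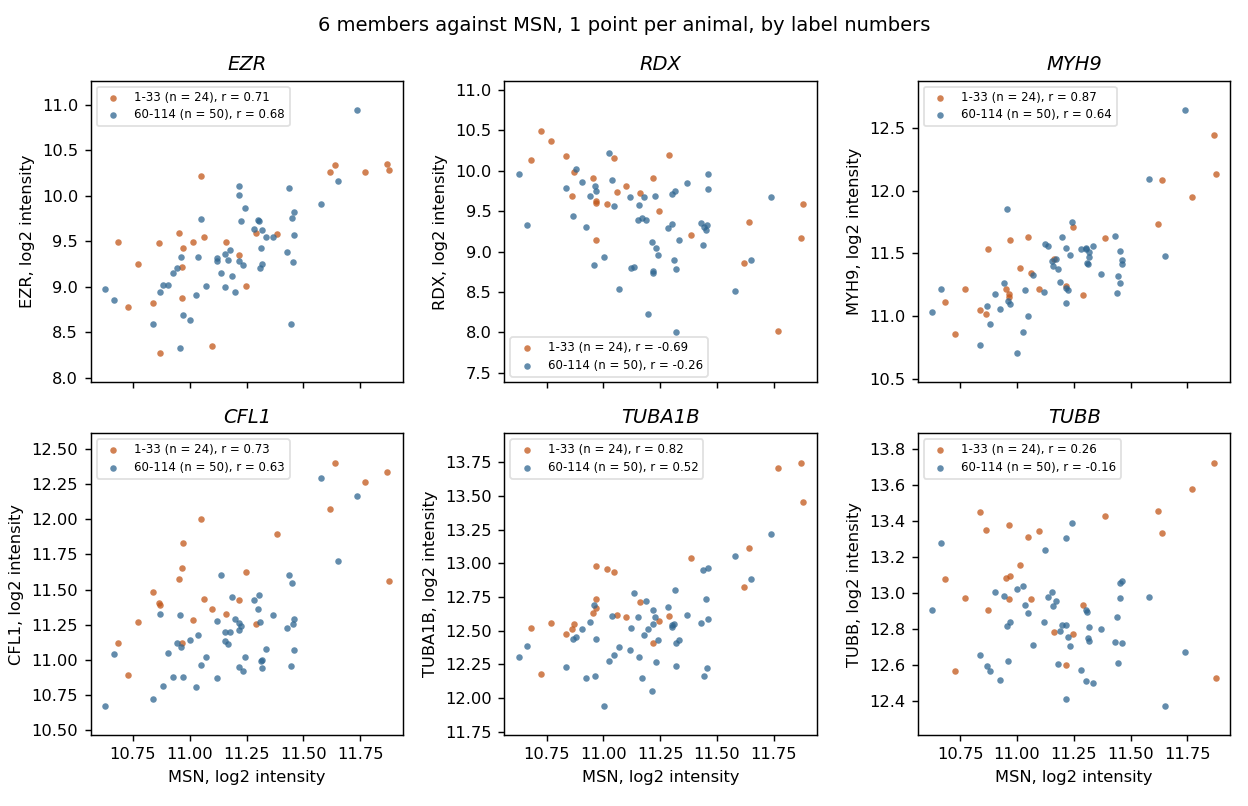
Log2 intensity of EZR, RDX, MYH9, CFL1, TUBA1B and TUBB (vertical axes) against that of MSN (horizontal axes), 1 point per animal, with the 24 low-number animals in orange and the 50 high-number animals in blue. EZR climbs with MSN in both blocks (r = 0.71 and 0.68), RDX falls with it (r = -0.69 and -0.26, a direction that turns in the values as deposited), and TUBB shows opposite signs (r = 0.26 and -0.16).

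Over the other 26 genes, 13 rose with MSN and 2 fell, by limma with the block as a covariate at an adjusted p under 0.05. Over all probe sets tested, 21.4% rose with MSN and 19.4% fell, so the share that rose was higher among the cytoskeleton genes and the share that fell was lower. The median r with MSN was 0.273 over the 26 genes and 0.0249 over all probe sets. The genes that rose were EZR, the actin ACTB, the regulators CFL1 and ARPC1B, the filamin FLNA, the adhesion proteins TLN1 and ACTN1, the nonmuscle myosin heavy chain MYH9, the tropomyosin TPM4, TUBA1B, the kinesin KIF5B, VIM and SPTAN1. Those that fell were RDX and SYNM, an intermediate filament protein of muscle that binds desmin. In the low-number animals alone 11 rose and 1 fell (14% and 14.5% of all probe sets), and in the high-number animals alone 12 rose and 1 fell (8.37% and 5.58%). KIF5B did not pass in either block alone, and ACTB did not pass in the low-number animals alone. With arrays brought to a common median neither KIF5B nor ACTB passed. In the values as deposited 21 rose and 0 fell, where 66.2% of all probe sets rose and 0.0833% fell.

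MYH9, the heavy chain of a contractile myosin of nonmuscle cells, was closest to MSN among the cytoskeleton genes, with r = 0.739 (rho = 0.613, permutation p = 1e-05 for each, limma adjusted p = 6.9e-11). Its r was 0.865 in the low-number and 0.637 in the high-number animals. CFL1, the cofilin of nonmuscle cells, had r = 0.673 and rho = 0.488 with MSN (permutation p = 1e-05 and 0.00013, limma adjusted p = 1.4e-08), and FLNA had r = 0.565 and rho = 0.436 (p = 1e-05 and 0.00057, limma adjusted p = 4.8e-06). MYH9 and TPM4, a tropomyosin of nonmuscle filaments, had r = 0.762 (rho = 0.671, permutation p = 1e-05 for each). FLNA and MYH9 had r = 0.607 (rho = 0.505, permutation p = 1e-05 for each). The r values lay between 0.408 and 0.865 in each block for these pairs.

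With EZR, 13 of 26 genes rose and 1 fell, beside 17.1% and 14.7% of all probe sets. The 1 that fell was SYNM, with r = -0.581 (limma adjusted p = 2.8e-06). ARPC1B, a subunit of the Arp2/3 complex, was closest to EZR, with r = 0.760 (0.810 and 0.740 in the blocks, limma adjusted p = 2.3e-12). RDX gave the opposite picture, with 3 genes that rose and 15 that fell beside 25.2% and 29% of all probe sets. The 3 were DSTN (r = 0.490), ARPC3 (r = 0.414) and SYNM (r = 0.300). SPTAN1, the alpha chain of the spectrin net under the membrane, had the r farthest below 0 with RDX (r = -0.711, limma adjusted p = 7.4e-10, -0.825 and -0.641 in the blocks). ACTG1 followed with r = -0.686 and TLN1, which links integrins to actin, with r = -0.594. In the high-number animals alone 5 fell with RDX (21.3% of all probe sets), and in the low-number animals alone 13 (11.5%). In the values as deposited 0 fell and 13 rose, where 65.8% of all probe sets rose, so the direction of the RDX counts depends on the scaling. Several of the genes concerned moved with the array level within blocks, with r = -0.925 for ACTG1, -0.508 for SPTAN1, 0.572 for DSTN and 0.625 for ARPC3. With the array level as a covariate 1 gene, SYNM, rose with RDX and 12 fell (16.2% and 14.9% of all probe sets). Of these 12, 10 were among the 15 above, and EZR and ARPC1B were new. ACTG1, DSTN and ARPC3 did not pass there.

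**Figure D2:**
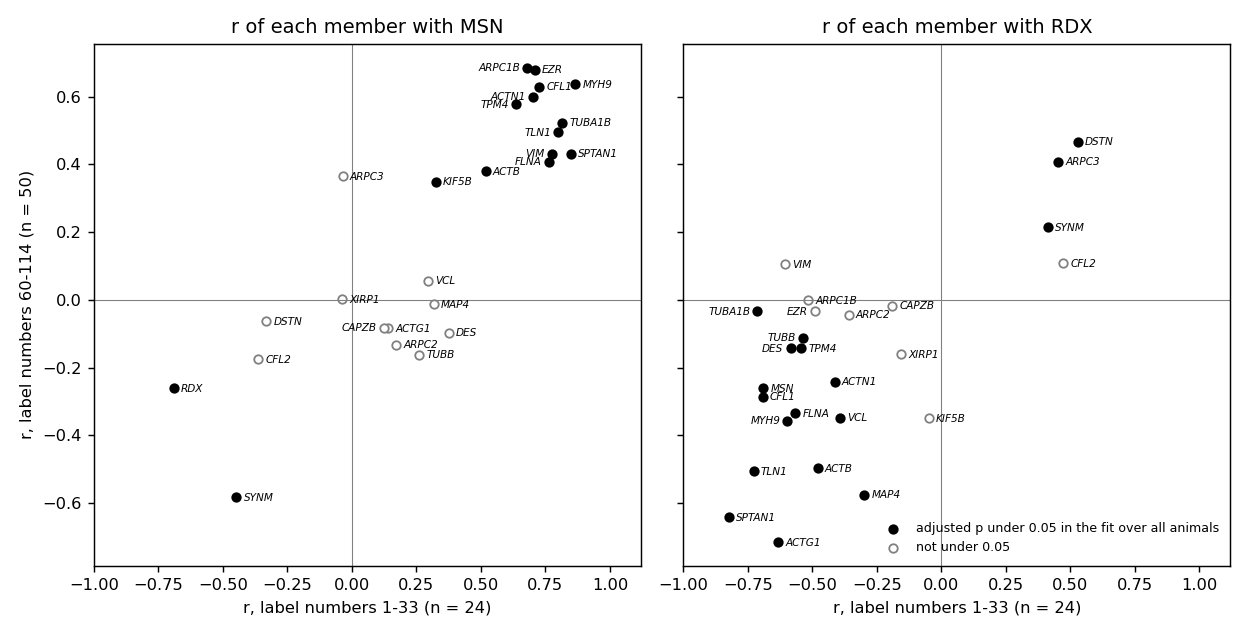
Pearson r of each of the other 26 genes with MSN (left) and with RDX (right), in the 24 low-number animals on the horizontal axis and in the 50 high-number animals on the vertical axis, with filled points where the limma adjusted p over all animals was under 0.05. The 13 genes that rose with MSN all lie at the upper right, above 0 on both axes, and SPTAN1 lies at the lower left with RDX (-0.825 and -0.641). In the values as deposited SPTAN1 did not pass with RDX in either direction.

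SYNM ran against most of the genes that rose with MSN. On SYNM, 13 of 26 genes fell and 2 rose, beside 13.8% and 10.1% of all probe sets. ARPC1B had r = -0.755 (-0.818 and -0.635 in the blocks, limma adjusted p = 3.8e-12) and ACTN1, an actinin that bundles actin at adhesions, r = -0.750 (-0.798 and -0.756, adjusted p = 9.3e-12). VIM, the intermediate filament protein of mesenchymal cells, had r = -0.637 and CFL1 r = -0.611. The 2 genes that rose with SYNM were RDX and the muscle cofilin CFL2. DES, the desmin that SYNM binds, had r = 0.186 and rho = 0.208 with it and did not pass (permutation p = 0.14 and 0.11, limma adjusted p = 0.22), although it did with the common array median (r = 0.385, adjusted p = 0.0053). DES and VIM had r = 0.00088 (rho = -0.0877, permutation p = 0.99 and 0.51).

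In the cofilin family, CFL2 and DSTN, which both sever and take down actin filaments, rose together (r = 0.435, rho = 0.410, permutation p = 0.00033 and 0.0013, limma adjusted p = 0.00098, 0.591 and 0.317 in the blocks). In the high-number animals alone that relation did not pass (limma adjusted p = 0.098). CFL1 and CFL2 had r = -0.297 but rho = 0.0403 (permutation p = 0.0134 and 0.76, limma adjusted p = 0.038). This relation rested on few arrays: without the 4 arrays that stood apart r was -0.0236 (limma adjusted p = 0.91). CFL1 and DSTN had r = -0.184 and rho = -0.0225 and did not pass (permutation p = 0.13 and 0.87, limma adjusted p = 0.22). With CFL1, 15 of 26 genes rose and 3 fell, beside 20.2% and 20.4% of all probe sets, and with CFL2, 3 rose and 9 fell, beside 9.75% and 10.8%. The dimmer CFL2 probe set ran against MSN (r = -0.545, limma adjusted p = 1.2e-05), while the brighter one had r = -0.261 and did not pass (adjusted p = 0.074). TUBA1B was closest to CFL1, with r = 0.754 (0.758 and 0.755 in the blocks, limma adjusted p = 3e-11).

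ARPC1B, ARPC2 and ARPC3, subunits of the Arp2/3 complex, differed in what they moved with. ARPC1B and ARPC3 rose together with r = 0.323 and rho = 0.369 (permutation p = 0.0021 and 0.0040, limma adjusted p = 0.023), with 0.205 in the low-number and 0.460 in the high-number animals. Without the 4 arrays that stood apart the pair had r = 0.268 (limma adjusted p = 0.089), and with the leukocyte score as a covariate r = 0.0821 (adjusted p = 0.66). ARPC2 had r = -0.129 with ARPC1B and -0.103 with ARPC3 (permutation p = 0.31 and 0.38, rho = -0.218 and -0.0979 with p = 0.095 and 0.46). With ARPC2, 0 of 26 genes rose or fell, beside 1.19% and 0.908% of all probe sets. ARPC2 was dim, with a low-number median under the lowest median that the filter kept. The part of this in its counts was not tested. The counts with ARPC1B were 13 that rose and 1 that fell (17.5% and 14.9%), and with ARPC3 they were 5 and 4 (16.5% and 16.9%). CAPZB, which caps the growing end of actin filaments, had 2 that rose, CFL1 and TUBB, and 0 that fell (1.9% and 1.93%).

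The tubulins differed from each other. TUBA1B, an alpha tubulin, had 12 genes that rose with it and 2 that fell (17.5% and 18.9% of all probe sets), and its r with MSN was 0.675 (0.816 and 0.523 in the blocks, limma adjusted p = 1.6e-08). TUBB, a beta tubulin, had 3 that rose and 3 that fell (12.1% and 13.1%). Its r with MSN was 0.0529 (rho = -0.0919, permutation p = 0.68 and 0.49), with 0.259 in the low-number and -0.162 in the high-number animals. TUBB and TUBA1B had r = 0.268 and rho = 0.115 (permutation p = 0.0341 and 0.38, limma adjusted p = 0.066), and r was 0.0994 when the 2 animals farthest from the TUBB median were left out. They reached r = 0.309 after quantile normalization (limma adjusted p = 0.032). The genes that rose with TUBB were ACTG1 (r = 0.383), CAPZB (r = 0.329) and CFL1 (r = 0.310), and those that fell were CFL2 (r = -0.300), RDX (r = -0.291) and ARPC3 (r = -0.286). In the fit on RDX, TUBB did not pass after quantile normalization, with the common array median or with the array level as a covariate. Within blocks the array level had r = -0.433 with TUBB, -0.925 with ACTG1, 0.672 with RDX and 0.625 with ARPC3. Its part in the other TUBB relations was not tested. KIF5B, the kinesin that moves cargo along microtubules, had 10 that rose and 1 that fell (12.8% and 8.83%), with TPM4 first at r = 0.462. MAP4, which stabilises microtubules, had 3 and 3 (18.7% and 19.2%).

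The same counts were made with each of the other genes as the regressor. With ACTB, 13 of 26 genes rose and 4 fell, beside 18.8% and 17.9% of all probe sets, and with ACTG1, 9 rose and 3 fell, beside 21.8% and 22.4%. TLN1 had 14 and 4 (26.7% and 22.8%), ACTN1 13 and 3 (17.8% and 14.8%), MYH9 13 and 3 (20.8% and 19.6%), and TPM4 13 and 2 (19.1% and 16.9%). VIM had 13 that rose and 1 that fell (15.9% and 12.8%), and SPTAN1 15 and 5 (28.1% and 23.9%). The counts with FLNA, the crosslinker, were 13 that rose and 3 that fell (16.4% and 16.2%). VCL had 3 and 1 (8.06% and 10.6%). The muscle proteins DES, with 4 that rose and 2 that fell (12% and 15.5%), and XIRP1, an actin-binding protein of muscle, with 1 and 1 (5.23% and 8.41%), had counts near the background. DSTN had 3 and 6 (20.5% and 20.6%).

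**Figure D3:**
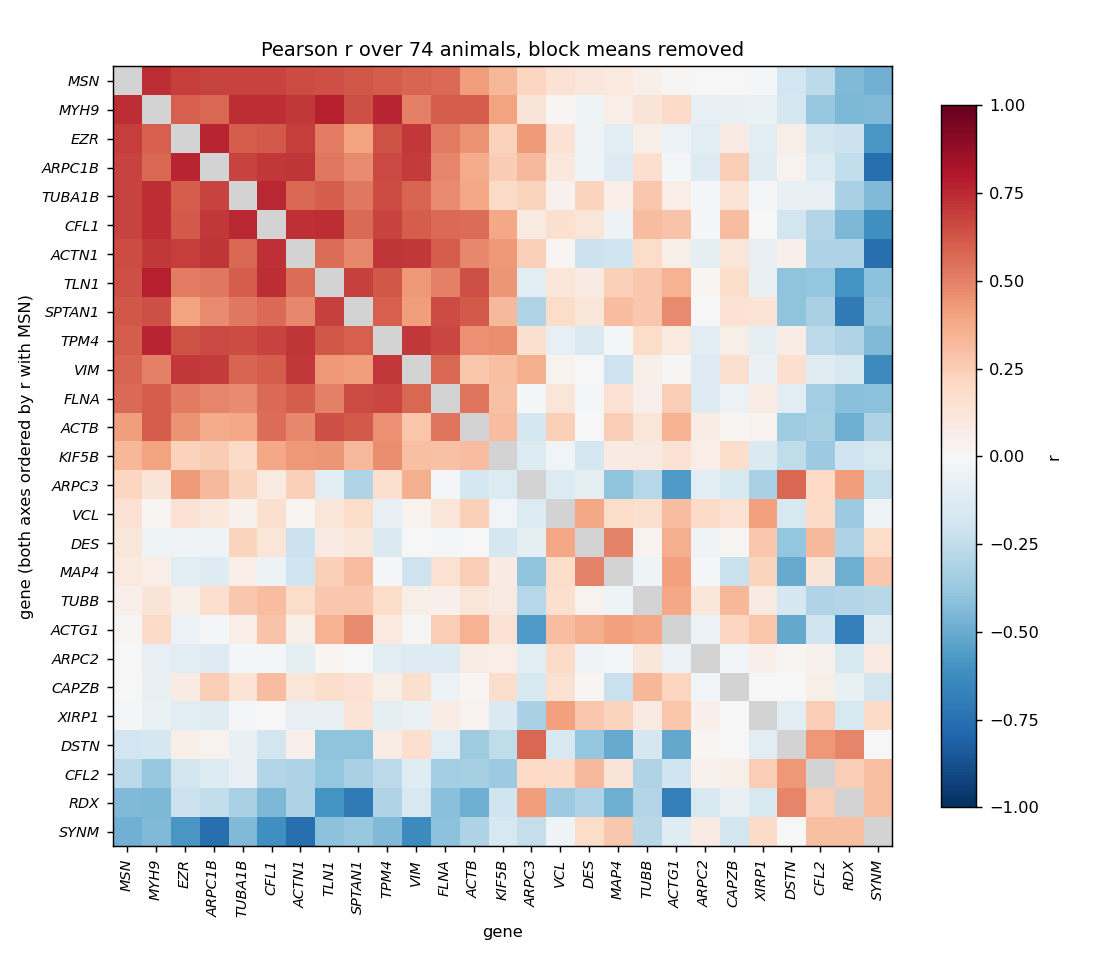
Pearson r between 27 cytoskeleton genes over 74 animals with block means removed, in red above 0 and in blue below, with genes on both axes in the order of their r with MSN. A red block spans MSN to KIF5B at the upper left, RDX and SYNM form blue bands at the bottom, and ARPC2, CAPZB and XIRP1 stay pale. In the values as deposited the sign of MSN with RDX turns.

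Over all 351 pairs of the 27 genes, 218 had a positive r, with a median of 0.0930 (0.194 in the low-number and 0.0561 in the high-number animals). In 252 pairs r had the same sign in both blocks. The median r of the 27 genes with all probe sets was 0.00585. ACTB and ACTG1, the cytoplasmic actins, had r = 0.349 and rho = 0.356 (permutation p = 0.0025 and 0.0054, limma adjusted p = 0.015), with 0.341 and 0.353 in the blocks. That relation did not pass after quantile normalization (r = 0.295, limma adjusted p = 0.10). Nor did it with the common array median (r = 0.146, adjusted p = 0.41) or as deposited (r = 0.103, adjusted p = 0.65). It also did not pass in either block alone (limma adjusted p = 0.31 and 0.076) or with the array level as a covariate (r = 0.00982, adjusted p = 0.97). VCL and TLN1, which bind each other at adhesion sites, had r = 0.121 (rho = 0.141, permutation p = 0.30 and 0.28). RDX and KIF5B had r = -0.197 and rho = -0.346 (permutation p = 0.10 and 0.0067, limma adjusted p = 0.19).

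Between the blocks, 7 of the 27 genes were lower and 14 higher in the low-number animals by limma at an adjusted p under 0.05, and 6 did not pass. Over all kept probe sets 61.3% were called, 36.5% lower and 24.8% higher. In 0 of the 27 genes were the blocks without overlap, beside 0.792% of all probe sets. The median difference, low-number minus high-number, was 0.19 on the log2 scale for the 27 genes and -0.07 for all probe sets. These values take the brightest probe set of each gene: over all 41 kept probe sets of the genes, 13 were lower and 16 higher, with a median of 0.01. These directions depend on the scaling. In the values as deposited the median of all probe sets was -0.65, and 21 genes were lower and 1 higher (83.7% and 2.08% of all probe sets), while with arrays brought to a common median the median of all was 0.20, with 5 lower and 18 higher (17% and 48.5%). Of the called genes, 66.7% were higher as scaled here and after quantile normalization, 4.55% as deposited and 78.3% with the common median. Over all probe sets called, these shares were 40.4%, 50.3%, 2.42% and 74.1%. Relative to the median of all probe sets, 18 of 27 lay above it as scaled here, as deposited and with the common median, 15 after quantile normalization, and 14 when each gene took the mean z score of all its kept probe sets.

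KIF5B had the largest difference among these genes. Its level ran from 7.32 to 10.09 with a median of 8.23 in the low-number animals and from 9.20 to 10.82 with a median of 9.91 in the high-number animals. The difference was -1.66 ± 0.10 (SE; limma adjusted p = 1.2e-24), and 23 of the 24 low-number animals lay below every high-number animal. VCL, vinculin, which couples adhesion sites to actin, had 11.76, 12.05 and 12.47 as lowest, median and highest level in the low-number and 12.30, 12.67 and 13.33 in the high-number animals. Its difference was -0.66 ± 0.06 (SE; limma adjusted p = 2.5e-16), with 21 low-number animals below every high-number one, and its dimmer kept probe set gave -1.40. The overlap of the blocks thus came from 1 animal for KIF5B and from 3 for VCL on the low-number side.

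Among the regulators, ARPC1B, ARPC2, ARPC3 and DSTN were lower in the low-number animals in each of the scalings, except that ARPC3 did not pass with the common array median (-0.01). Other genes of the Arp2/3 complex, outside the 27, did not share this direction. ACTR2 (0.83) and ARPC4 (0.29) were higher in the low-number animals (limma adjusted p = 2.9e-08 and 0.0019), although ARPC4 turned to -0.30 as deposited and ACTR2 did not pass there (0.25). ARPC5 was lower (-0.29, limma adjusted p = 0.032), though not after quantile normalization or with the common array median (-0.16 and -0.02), and ARPC1A (-0.14) and ACTR3 (0.14) did not pass. ACTR3 turned to -0.44 as deposited and ARPC1A to 0.13 with the common array median. ARPC1B ran from 6.63 to 9.86 with a median of 8.29 in the low-number and from 8.30 to 10.83 with a median of 9.31 in the high-number animals, a difference of -1.02 ± 0.17 (SE; limma adjusted p = 2.5e-07). ARPC2 ran from 6.00 to 7.95 (median 7.09) and from 6.91 to 8.53 (median 7.77), with a difference of -0.63 ± 0.10 (adjusted p = 1.4e-07 by limma). Its median over all animals passed the filter, but its low-number median lay under the lowest median kept (142.5 as scaled intensity). Without the filter the ARPC2 difference was also -0.63 (adjusted p = 3.5e-07 by limma). ARPC3 ran from 9.69 to 10.69 (median 10.12) and from 9.51 to 11.49 (median 10.43), with -0.28 ± 0.07 (adjusted p = 0.00077 by limma). The low-number animals spread wider for ARPC1B (SD 0.97, against 0.51), and 12 of them lay below every high-number animal. DSTN ran from 8.20 to 10.42 (median 9.63) and from 9.37 to 11.04 (median 10.33), with -0.68 ± 0.10 (SE; limma adjusted p = 4.7e-08), and its dimmer probe set gave -1.39.

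CAPZB was the regulator that was higher in the low-number animals in all of these scalings. It ran from 10.16 to 11.64 (median 10.87) in the low-number and from 8.95 to 10.82 (median 9.93) in the high-number animals, a difference of 1.02 ± 0.10 (SE; limma adjusted p = 2.6e-14). There, 14 of the 24 low-number animals lay above every high-number animal, and a dimmer kept probe set gave 0.72. CFL1 ran from 10.89 to 12.40 (median 11.46) and from 10.67 to 12.29 (median 11.16), with 0.39 ± 0.09 (SE; limma adjusted p = 6.8e-05) but -0.20 in the values as deposited. CFL2, the muscle cofilin, ran from 12.20 to 13.81 (median 13.16) and from 11.94 to 13.87 (median 13.22), and its difference of -0.12 ± 0.08 did not pass (limma adjusted p = 0.19), but as deposited it was -0.70 and did (adjusted p = 1e-08).

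FLNA, the filamin of nonmuscle cells, ran from 8.47 to 10.27 (median 9.11) in the low-number and from 7.81 to 9.88 (median 8.75) in the high-number animals. It was higher in the low-number animals by 0.51 ± 0.12 (SE; limma adjusted p = 0.00013), against -0.08 as deposited. VIM ran from 13.54 to 15.26 (median 14.38) and from 13.19 to 14.87 (median 14.00), with 0.44 ± 0.10 (limma adjusted p = 5.1e-05), against -0.14 as deposited. TUBB ran from 12.53 to 13.72 (median 13.09) and from 12.37 to 13.39 (median 12.82), with 0.29 ± 0.07 (limma adjusted p = 0.00014), and TUBA1B from 12.18 to 13.75 (median 12.65) and from 11.94 to 13.22 (median 12.51), with 0.30 ± 0.08 (adjusted p = 0.00064). As deposited these were -0.30 and -0.29. The blocks overlapped broadly for all of these genes, with 3 to 5 low-number animals above every high-number one.

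Of the ERM genes, RDX was higher in the low-number animals by 0.34 ± 0.12 (SE; limma adjusted p = 0.013), which was -0.24 as deposited. The dimmer RDX probe set gave -0.17 and did not pass (adjusted p = 0.30 by limma). MSN (-0.03 ± 0.07) and EZR (0.11 ± 0.13) did not pass (limma adjusted p = 0.76 and 0.45). With the common array median MSN turned to 0.24, and as deposited EZR turned to -0.47. MYH9, MAP4 and XIRP1 did not pass either. With the common array median EZR and MYH9 were higher in the low-number animals, by 0.38 and 0.37. As deposited MSN (-0.61), MAP4 (-0.59) and XIRP1 (-0.89) passed as lower. The other genes that were higher, TPM4, ACTB, TLN1, ACTN1, SPTAN1, DES and ACTG1, had differences from 0.19 to 0.35, and all of them had the opposite sign in the values as deposited. SYNM was lower by -0.33 ± 0.09 (limma adjusted p = 0.0016), with SD 0.59 in the low-number and 0.22 in the high-number animals. It did not pass with the common array median (-0.06).

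**Figure D4:**
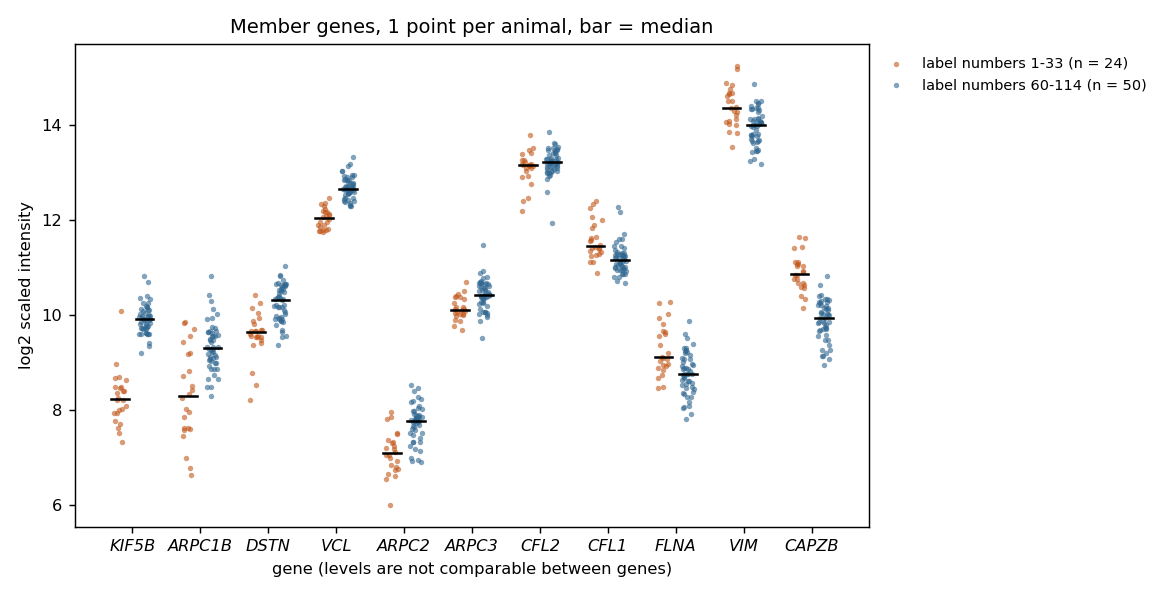
Log2 scaled intensity of 11 cytoskeleton genes (vertical axis), 1 point per animal, with the 24 low-number animals in orange and the 50 high-number animals in blue, and black bars at the medians. KIF5B and VCL nearly separate, at medians of 8.23 and 9.91 and of 12.05 and 12.67, CAPZB lies the other way (10.87 and 9.93), and CFL1, FLNA and VIM overlap broadly and change direction in the values as deposited.

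**Figure D5:**
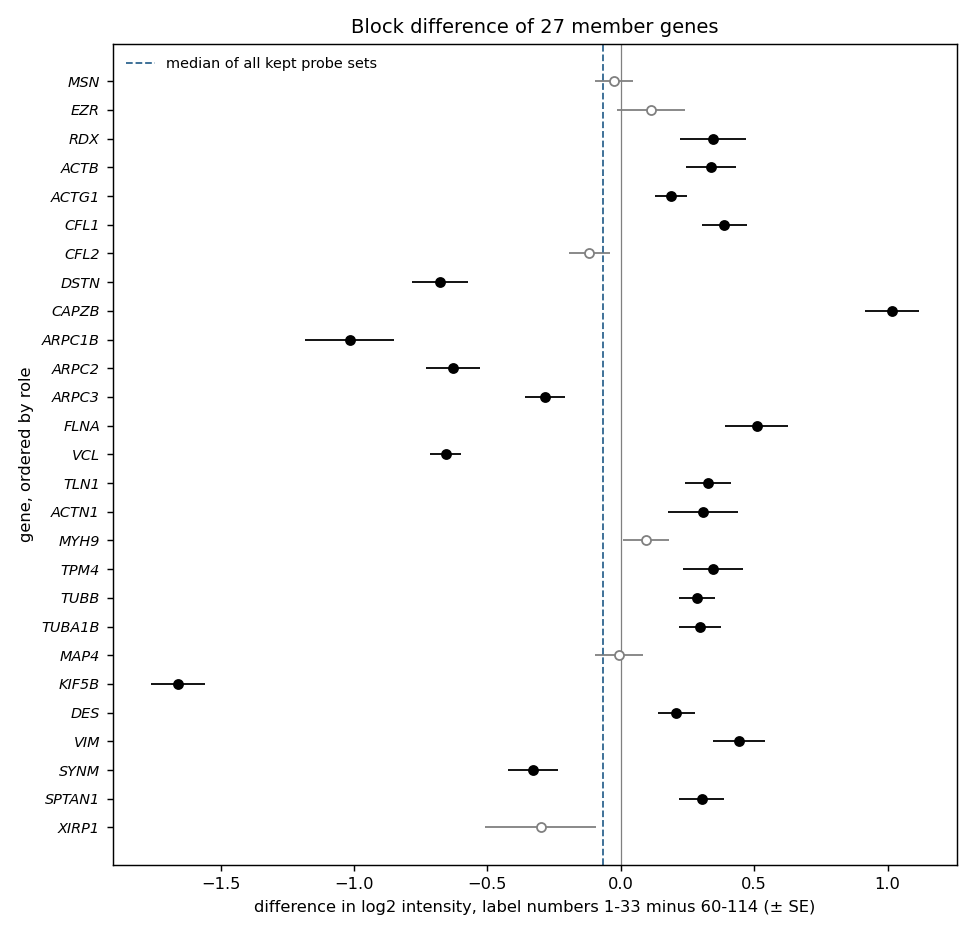
Difference in log2 intensity, low-number minus high-number animals, for 27 cytoskeleton genes ordered by role, with bars of 1 SE, filled points where the limma adjusted p was under 0.05, and a dashed line at the median of all kept probe sets (-0.07). KIF5B (-1.66) and CAPZB (1.02) mark the ends, ARPC1B, ARPC2 and ARPC3 lie left of 0, and of the 14 filled points right of 0 all except CAPZB change side in the values as deposited.

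Probe sets of the same gene did not always give the same result. The brighter ACTB probe set was higher in the low-number animals by 0.34 and the dimmer one lower, by -0.98 ± 0.12 (SE; limma adjusted p = 8.5e-11), and the pair had r = -0.0143 with block means removed. Of the 4 kept ACTG1 probe sets, the brightest gave 0.19, and the others gave -0.41, -0.15 and 0.01. The brightest one ran against the array level with r = -0.925 and had r = 0.00987 with MSN, whereas the next one had r = 0.658 with MSN (limma adjusted p = 3.7e-08). MAP4 had a probe set with -0.43 (limma adjusted p = 5.4e-05) beside a brighter one with -0.01. Which probe set reads these genes better was not tested. RNA quality, read from the 3' to 5' control probe sets of actin on a log2 scale, was 1.72 ± 0.17 (SD) in the low-number and 1.81 ± 0.18 (SD) in the high-number animals. The same ratio for GAPDH was 0.15 ± 0.07 (SD) and 0.20 ± 0.06 (SD), and within blocks it had r = 0.399 with CAPZB and -0.345 with FLNA. Its part in their block differences was not tested. With the actin ratio as a covariate 7 genes were lower and 13 higher (36.2% and 24.2% of all probe sets), and ACTN1 no longer passed (0.26, limma adjusted p = 0.081). ACTN1 was also lost without the filter (adjusted p = 0.053) and without the 4 arrays that stood apart (0.26, adjusted p = 0.078).

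Beyond the 27 genes, a list of 60 further actin and microtubule genes had 35 with a kept probe set. Of these, 18 rose with MSN and 2 fell, CAPZA2 and CAP2, beside 21.4% and 19.4% of all probe sets. The smallest adjusted p values among those that rose were those of WDR1, a cofactor of cofilin (r = 0.663, 0.811 and 0.489 in the blocks), CAP1, which recycles actin monomers (r = 0.639, 0.684 and 0.634), and EPB41L2, which links spectrin and actin to the membrane (r = 0.643, 0.736 and 0.551). With RDX, 7 of the 35 rose and 14 fell, beside 25.2% and 29%. ACTR2 and ACTR3, the actin-related core of the Arp2/3 complex, rose with RDX (r = 0.709 and 0.615), and so did CAP2, the form of CAP1 found in muscle (r = 0.706). RDX itself moved with the array level before scaling (r = 0.672 within blocks). The part of the array level in these RDX relations was not tested.

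Markers of other cell types moved with MSN and in part with EZR, and with RDX some fell and some rose. Of 11 leukocyte markers with a kept probe set, 10 rose with MSN and 10 with EZR (21.4% and 17.1% of all probe sets). For MSN they were led by ITGB2, a leukocyte integrin chain (r = 0.707, 0.851 and 0.621 in the blocks). The mean of the list had r = 0.708 with MSN. PTPRC, the common leukocyte antigen, was too dim to be kept, and CORO1A did not pass (r = -0.100). The summed leukocyte level, as scaled intensity, ran from 4117 to 19011 in the low-number and from 3877 to 16974 in the high-number animals. With MSN there rose also 5 of 8 endothelial and 4 of 8 fibroblast markers. Of 9 smooth muscle and pericyte markers 6 rose and 1 fell with it, beside 21.4% and 19.4% of all probe sets. EZR had 5 of 8 fibroblast, 4 of 9 smooth muscle and 0 of 8 endothelial markers that rose, beside 17.1% of all probe sets. With RDX, 0 of 11 leukocyte and 0 of 8 endothelial markers rose, and 4 of each list fell. Of 8 fibroblast markers 2 rose and 1 fell with RDX. Of 9 smooth muscle and pericyte markers 2 rose and 4 fell with it. Of all probe sets 25.2% rose with RDX and 29% fell. With the leukocyte score as a covariate 12 of the 26 genes still rose with MSN (14.4% of all probe sets), all of them among the 13. With the smooth muscle score 12 of the 13 also did (15.2%). MSN and EZR had r = 0.407 with the leukocyte score as a covariate (limma adjusted p = 0.0033). The part of leukocytes in the remainder was not tested.

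Muscle fibre markers differed from the leukocyte markers in the fits on MSN and EZR, though not in direction with RDX. Of 12, 0 rose with MSN and 1 fell, TTN (r = -0.415), beside 21.4% and 19.4% of all probe sets. With RDX 8 fell (29%), and with TUBB 8 rose (12.1%). With EZR 4 of the 12 fell (14.7%), with a median r of -0.259 over the list. The summed level of the 12 ran from 320088 to 730597 in the low-number and from 334843 to 705911 in the high-number animals. CKM, the muscle creatine kinase, and TNNT3 and TNNC2, troponins of fast fibres, had r = -0.650, -0.642 and -0.651 with RDX. The array level before scaling moved with RDX (r = 0.672) and against TUBB (r = -0.433) within blocks, and its part in these counts was not tested.

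The 4 arrays that stood apart had high levels of several genes that rose with MSN. All 4 were among the 5 highest animals of their own block for MSN, EZR, TLN1, MYH9 and TUBA1B, and 0 of them were so for RDX. Of other genes that rose with MSN, ARPC1B, ACTN1 and SPTAN1 had 2 of the 4 arrays there and KIF5B 1. Without them 13 genes rose with MSN and 2 fell, the same genes as with them (16.8% and 14.7% of all probe sets), and MSN and EZR had r = 0.605. RDX then had 4 that rose and 10 that fell (22.6% and 25.6%).

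Outside the cytoskeleton, CD81, a membrane tetraspanin, had the highest r with MSN among probe sets assigned to 1 gene (r = 0.804, 0.934 and 0.657 in the blocks), followed by PRELID1, HEXA, S100A11 and ARHGDIA (0.778 to 0.755). At the other end were probe sets of PPP3CB, a catalytic chain of calcineurin (r = -0.777 and -0.737), DCAF6 (-0.765), STRADB (-0.720) and LOC102166602 (-0.717). Only probe sets with the same sign in both blocks were considered here, so the shared sign was set by the choice. Each passed in the limma fit, from whose ends they were picked.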

How the data were processed

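RNA of 74 muscles was hybridised to 1 array each. The authors deposited 1 table of linear intensity values for 24123 probe sets, 124 of them controls. GCOS 1.1.1 is named in the submitters' processing notes, and the study's methods also name MAS5 calls and PLIER, but the sources used here do not say which of them gave the values. Arrays were brought to a common trimmed mean of 500 (2% left out at each end). Values under a floor of 1 were set to it before the log2 step. The upper 50% of probe sets by median were kept, with a lowest scaled median of 142.5. Probe sets assigned to several genes were left out. Depth does not apply, and the number of arrays limits the precision.

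Animals were grouped by label number. limma 3.58.1 (R 4.3.3) fitted the block difference, each gene as a regressor with the block as a covariate (27 fits, 323959 tests adjusted together by Benjamini-Hochberg), and the slope difference between blocks. For 21 pairs of partner genes, r and rho were tested by 100000 two-sided permutations within blocks. The code was tested on simulated data. The named genes were the 27 with a kept probe set, up to 3 examples per list, and those at the ends of the MSN fit. The latter were the 5 single-gene probe sets at each end whose r had the same sign in both blocks. The members and lists were chosen with earlier results of these data known. Alternatives were other scalings, filters, covariates, single blocks, ranks and left-out animals. Those of the arrays that stood apart, the array level, the smooth muscle score, the RDX counts and the further Arp2/3 genes were chosen after seeing the data. Drip loss, family and genotype were not analysed here. Figures were drawn with matplotlib 3.10.9.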

Additional observations from a re-analysis of the deposited data

Results flagged for a closer look

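The slope of SYNM on TUBB differed between the blocks, the 1 such difference among 702 relations of the 27 genes (limma, adjusted p = 0.0426 over all fits), beside 0.167% of all probe sets in the TUBB fit. At an unadjusted p under 0.05 there were 117. SYNM fell with TUBB in the low-number animals (r = -0.559, slope -1.0) and had r = 0.206 and a slope of 0.20 in the high-number animals. The same difference did not pass with SYNM as the regressor (limma adjusted p = 0.17). Without the 4 arrays that stood apart it had r = -0.610 and 0.181 and an adjusted p of 0.037.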

How the results depend on the processing

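The scaling of the arrays changed most. In the values as deposited, genes that rose and fell with MSN numbered 21 and 0, those with RDX 13 and 0, and those lower and higher in the low-number animals 21 and 1. In that setting the shares of all probe sets were 66.2% and 0.0833%, 65.8% and 0.075%, and 83.7% and 2.08%. There r of MSN and RDX turned to 0.297, of ARPC2 and ARPC3 to 0.383, of CFL1 and CFL2 to 0.124, of CFL1 and DSTN to 0.316, and of RDX and KIF5B to 0.276. Block differences also turned, to -0.25 for ACTB, -0.40 for ACTG1, -0.28 for ACTN1, -0.20 for CFL1, -0.38 for DES, -0.47 for EZR, -0.077 for FLNA, -0.49 for MYH9, -0.24 for RDX, -0.28 for SPTAN1, -0.26 for TLN1, -0.24 for TPM4, -0.29 for TUBA1B, -0.30 for TUBB and -0.14 for VIM. With the common array median MAP4 (0.26) and MSN (0.24) turned, and 8 genes fell with RDX (12.2% of all probe sets). By Spearman's method CFL1 and CFL2 had 0.0403. In single blocks 1 gene fell with MSN in each (14.5% and 5.58% of all probe sets in the low-number and the high-number animals). With RDX 1 rose in the low-number animals (17.5%) and 5 fell in the high-number animals (21.3%). In the latter MSN and RDX gave -0.260 and did not pass. With block means kept 0 rose with RDX (22.1% of all probe sets), and with the array level as a covariate 1 rose (16.2%). Relations that passed in neither setting also changed sign. As deposited these were EZR and RDX (0.235) and ARPC1B and ARPC2 (0.0940), the latter also in the low-number animals alone (0.0508) and with block means kept (0.251). With the common median they were ARPC2 and ARPC3 (0.0461), MSN and TUBB (-0.0574), VCL and TLN1 (-0.0472) and the block difference of CFL2 (0.15). With block means kept they were ARPC2 and ARPC3 (0.166) and VCL and TLN1 (-0.267), and with the mean z score CFL1 and DSTN (0.00191), MSN and TUBB (-0.0544) and VCL and TLN1 (-0.0197). MSN and TUBB also turned in the high-number animals alone (-0.162) and by rank (-0.0919). DES and VIM turned with RNA quality (-0.0140) or the leukocyte score (-0.0840) as a covariate, in the high-number animals alone (-0.0921), by rank (-0.0877) and without the 2 farthest animals (-0.00627). The cause was not tested. Over all settings, 69 of 82 counts stayed within 1.5 times, and 185 of 214 block differences and 273 of 332 pair correlations kept their direction and their side of the threshold. These totals include the other filters, which cannot change the value of a block difference or of r, only its adjusted p. In the values as deposited alone 15 block differences turned and 8 kept both direction and side. No paired analysis was possible because the labels neither pair the animals nor give their families.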
